A study of Mus musculus with 6 samples.

Results

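The genes described here encode chemokines, cytokines and their receptors, measured by RNA sequencing in cultured primary mouse Sertoli cells with and without UXT. They were chosen by symbol: every row of the deposited table whose name begins with Ccl, Ccr, Cxcl, Cxcr, Cx3c, Tnfsf, Tnfrsf, Csf or Socs, or with Il and a digit, together with Lif, Tnf, Pf4 and Lcn2. This gave 55 of the 3257 genes analysed. They comprised 10 CC chemokine ligands, 9 CXC and CX3C chemokine ligands (Pf4 among them), 4 chemokine receptors, 5 interleukin family genes including Lif, 11 interleukin receptors, 4 receptors for colony-stimulating factors, 5 TNF superfamily ligands, 6 TNF receptor superfamily genes and Lcn2. No row analysed here had a Socs symbol.

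The UXT KO group held 3 libraries of primary Sertoli cells that were isolated from UXT KO animals and infected with a virus that delivered Cre recombinase. The WT group held 3 libraries of wild-type primary Sertoli cells that received an empty plasmid. Both groups were C57BL/6 cells enriched by differential plating, and UXT (ART-27) belongs to the alpha-class prefoldins and acts as a cofactor of the androgen receptor. Cre was delivered to the UXT KO cells alone, and by a virus, whereas the WT cells received a plasmid. The loss of UXT, the delivery of Cre and the use of a virus or a plasmid therefore cannot be told apart in any value below. Uxt itself was not among the rows analysed here, so its loss was not checked. Whether replicate libraries derive from different animals or cultures is not labelled, so the p-values reflect the spread among these 6 libraries and this may be technical.

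Every gene in the table had been selected by the authors on these same libraries, with folds of 1.5 or more and adjusted p-values below 0.05, so a call in this table is not independent evidence of a change and genes outside it are not described. Values per library are the authors' normalized log2 values. Their median over all 3257 genes was 8.82 to 8.91 in UXT KO libraries and 9.15 to 9.18 in WT libraries. Of 30 Sertoli cell markers, 23 were in the table, 22 of them lower and 1 higher (14 lower and 3 higher after median centring), and their summed level, as the log2 of the sum, was 16.88 to 17.15 in UXT KO libraries and 17.87 to 18.22 in WT libraries. The depth of the libraries is unknown.

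Chemokines are small secreted proteins that direct the migration of leukocytes through G protein-coupled receptors, and their CC, CXC and CX3C classes are named for the spacing of conserved cysteines. Interleukins, colony-stimulating factors and TNF superfamily ligands act through receptors that signal mainly by the JAK-STAT or NF-kB pathways, and many of these genes are themselves NF-kB targets. In the testis, resident macrophages, peritubular cells and Sertoli cells all produce cytokines, and interleukin 6, LIF and TNF are known to act within the seminiferous epithelium.

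Promoters of some chemokine genes that hold a match to the NF-kB motif are shown first. Other chemokine genes that were lower, such as Ccl12, Ccl3 and Pf4, had no match in their window. Whether the motif bears on the change was not tested. The windows are RefSeq sequence of build GRCm38.p6, running 5′ to 3′ on the strand of the gene from 250 bases before the start site, and capitals mark the match. Ccl20 lies at chr1:83116516-83116815 on the plus strand, and Cxcl3, Cxcl1 and Cxcl2 lie at chr5:90785851-90786150, chr5:90890995-90891294 and chr5:90903649-90903948, all on the plus strand.
Ccl20: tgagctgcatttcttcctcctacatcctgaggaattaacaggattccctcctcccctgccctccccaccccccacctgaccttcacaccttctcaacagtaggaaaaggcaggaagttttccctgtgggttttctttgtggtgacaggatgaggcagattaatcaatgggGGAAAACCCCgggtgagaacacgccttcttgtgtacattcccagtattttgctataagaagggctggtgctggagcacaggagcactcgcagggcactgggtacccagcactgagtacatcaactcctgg
Cxcl3: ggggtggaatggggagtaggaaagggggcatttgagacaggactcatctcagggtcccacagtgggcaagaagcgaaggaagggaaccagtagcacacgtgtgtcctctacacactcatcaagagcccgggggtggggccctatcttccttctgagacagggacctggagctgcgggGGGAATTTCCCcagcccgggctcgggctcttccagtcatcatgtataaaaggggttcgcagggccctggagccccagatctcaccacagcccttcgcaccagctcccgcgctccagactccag
Cxcl1: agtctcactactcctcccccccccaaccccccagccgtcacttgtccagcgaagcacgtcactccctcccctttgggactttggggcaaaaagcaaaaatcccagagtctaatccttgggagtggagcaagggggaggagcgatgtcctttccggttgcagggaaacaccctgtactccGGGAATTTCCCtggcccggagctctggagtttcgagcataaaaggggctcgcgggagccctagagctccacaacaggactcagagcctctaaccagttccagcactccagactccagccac
Cxcl2: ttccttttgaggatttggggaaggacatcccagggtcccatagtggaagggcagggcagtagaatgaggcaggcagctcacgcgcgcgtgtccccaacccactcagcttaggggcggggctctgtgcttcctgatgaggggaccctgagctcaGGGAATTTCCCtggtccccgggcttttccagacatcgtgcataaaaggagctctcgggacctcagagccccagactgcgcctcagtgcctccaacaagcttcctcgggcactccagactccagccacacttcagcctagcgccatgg

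In Cxcl1, Cxcl2 and Cxcl3 the capitals cover 2 overlapping matches, one on each strand, that read the same 11 letters in the 3 genes. The match began 71 bases before the start site in Cxcl1, 97 in Cxcl2, 73 in Cxcl3 and 80 in Ccl20. Matches in 4 other promoters, for Cxcl10 the first of its matches and for Tnfrsf9 2 that overlap, are shown within 30 bases, to set them beside the chemokine sites.
Il6: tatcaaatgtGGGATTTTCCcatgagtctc
Tnfrsf9: cagagcagctGGGGATTTCCCaggaggccc
Cxcl10: agaggggagaGGGAAATTCCaagttcatgg
Ccl9: tttgaactttGGAAAGCCCCaagtcacctt

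RefSeq promoter windows were used for 43 of the 55 genes, and 12 of these (27.9%) held the NF-kB motif on either strand in at least 1 window. Windows on chromosome 18, where Csf1r lies, were left out for the 55 genes but not for the wider shares that follow. Over the table as a whole it stood in 344 of 2468 genes with a window (13.9%), and over all genes with a window in 9.55%. By window it stood in 2779 of 32851 promoters (8.46%), and the STAT motif described next in 8.30%. The 12 genes were Ccl9, Ccl20, Cxcl1, Cxcl2, Cxcl3, Cxcl10, Ccr1, Il1r1, Il4ra, Il6, Lif and Tnfrsf9. The STAT motif TTCNNNGAA, which reads alike on both strands, was in 6 of 43 genes (14.0%), against 8.91% of the table's genes with a window. These counts describe letters in a window and do not show binding, and a gene with several windows had more chances of a match.

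Transcripts for chemokines, cytokines and their receptors were lower in UXT KO cells, with 52 of 55 genes lower and 3 higher. All 55 passed limma at an adjusted p under 0.05, in a table where 99.6% of genes did, so passing is no result about these genes. The share that was lower was 94.5%, where 67.5% of all 3257 genes were called lower and 32.1% higher. The median log2 fold change by the authors' deposited table was -1.38 over the 55 genes and -0.88 over all genes. A fall of 4-fold or more by the authors' deposited table was listed for 19 of the 55 genes (34.5%), against a background of 13.5%. A rise of that size was listed for 1 gene, against a background of 0.768%. These comparisons were not matched for level. The median average log2 expression was 8.1 over the 55, 6.9 over those with folds of 4 or more and 9.2 over all genes. In the deposited values the median difference was -0.56 over the 55 and -0.40 over all genes. The 3 that were higher were Il1rl1, Ccl28 and Tnfrsf22. Macrophage and endothelial markers were lower in the same libraries, and in bulk RNA fewer cells of a type and less RNA per cell cannot be told apart.

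In 54 of the 55 genes the 3 UXT KO values lay all above or all below the 3 WT values, close to the background of 97.5% (65.8% lower and 31.7% higher). The scaling between libraries bears on these counts, because it moves the median difference of all genes from -0.40 to -0.07 on the log2 scale with quantile normalization and to -0.10 with median centring. Both scalings were computed over the 3257 selected genes alone, of which 67.5% were called lower. They therefore take out part of that selected change by construction. A call lost or a sign changed under them, here and below, cannot be told apart from this. With these scalings 30 of the 55 were called lower and 3 higher after quantile normalization, and 30 were called lower and 4 higher after median centring. The lower share among called genes was then 90.9% and 88.2% for the 55, against 52.1% and 47.9% for the table.

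**Figure D1:**
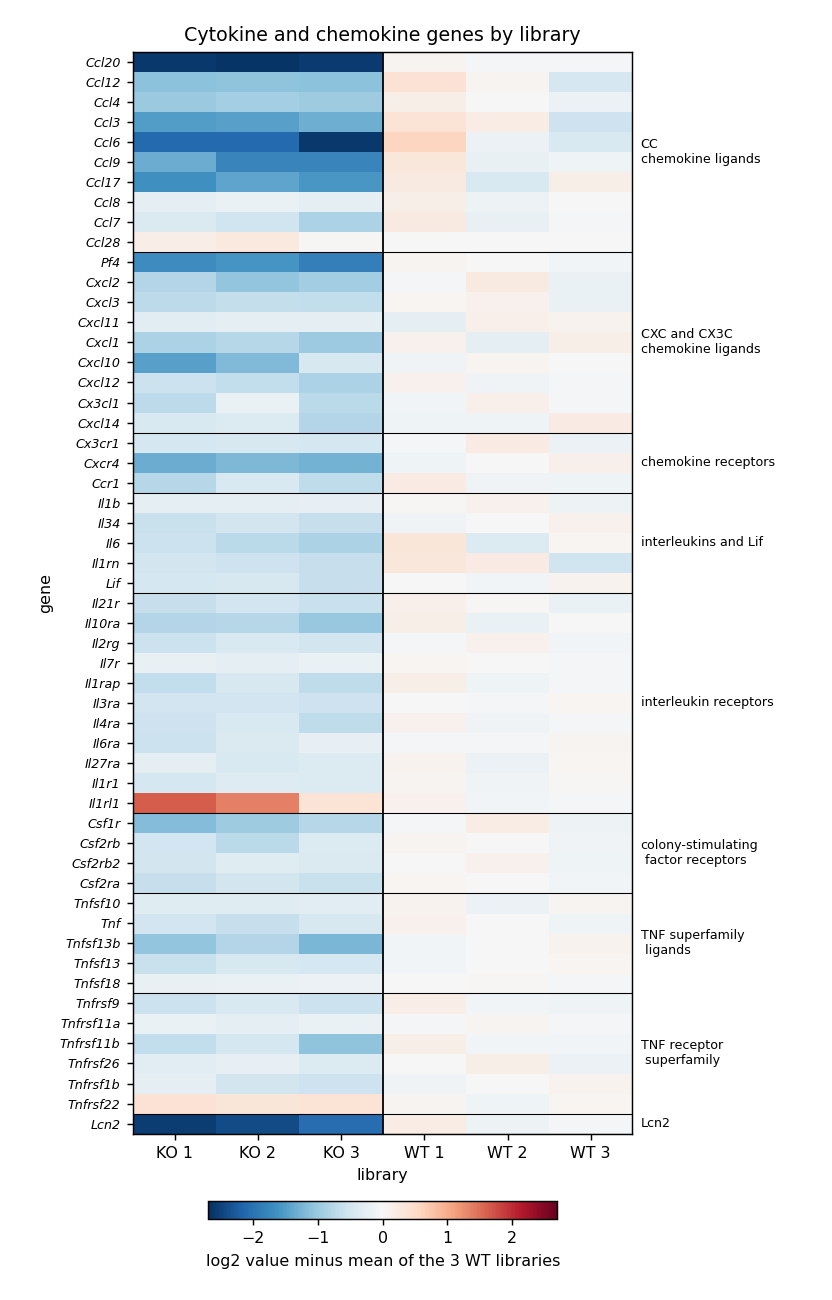
Deposited log2 value of 54 of the 55 genes in each library, minus the mean of the 3 WT libraries, with the UXT KO libraries on the left and genes ordered by role and by the authors' fold. Blue is lower than the WT mean, and the rows that are red on the left are Ccl28, Il1rl1 and Tnfrsf22.

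**Figure D2:**
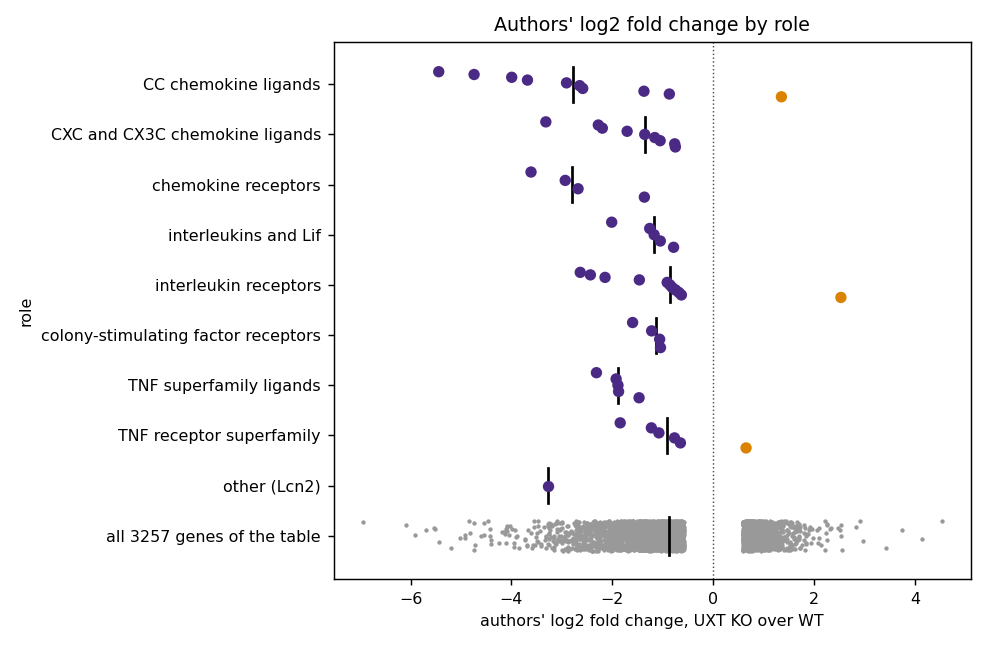
Log2 fold change of UXT KO over WT by the authors' deposited table, 1 point per gene, by role, with the median as a bar and all 3257 genes of the table in grey. The gap around 0 is the authors' threshold of 1.5-fold, and 3 of the 55 genes lie to its right.

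The CC chemokine ligands had a median fold of 6.89 by the authors' deposited table, with 9 of 10 lower and 1 higher, and 7 were called lower under each other scaling, with Ccl8 turned to a small positive difference after median centring. Ccl20, the only ligand of the receptor CCR6 among chemokines, had log2 values of 6.70, 6.67 and 6.73 in UXT KO libraries, against 9.38, 9.28 and 9.28 in WT libraries. The libraries of each group lay within a narrow band and far from the other group. Ccl20 fell 43.4-fold by the authors' deposited table, and its limma difference in the deposited values was -2.61 ± 0.09 (SE, adjusted p = 4.55e-07).

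Ccl3 and Ccl4 encode the macrophage inflammatory proteins, which attract monocytes and T cells. Ccl3 had 5.85, 5.91 and 6.04 in UXT KO libraries, against 7.72, 7.57 and 6.80 in WT libraries, where WT replicate 3 stood below the other WT libraries. Ccl4 had 5.29, 5.37 and 5.32 in UXT KO libraries, against 6.44, 6.29 and 6.12 in WT libraries. Neither gene overlapped between groups, and their falls by the authors' deposited table were 12.8-fold and 15.9-fold. Both passed limma (adjusted p = 2.68e-04 for Ccl3 and 3.35e-05 for Ccl4). RefSeq places part of Ccl4 over Ccl3, and the use of strand in counting is not given in the sources used here, so their separate values are uncertain.

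Among the monocyte attractants, Ccl12 had 5.36, 5.38 and 5.35 in UXT KO libraries, against 6.85, 6.54 and 6.01 in WT libraries. The WT libraries spread over a wider range than the UXT KO libraries, with replicate 1 highest. Ccl12 fell 26.7-fold by the authors' deposited table (limma adjusted p = 4.46e-04). Its deposited values differed by far less than that fold (limma difference -1.10 ± 0.18 SE). Folds of its neighbours were smaller, 2.59-fold for Ccl8 and 1.83-fold for Ccl7 by the authors' deposited table. Ccl7 stood at 12.86, 12.70 and 12.38 in UXT KO libraries, against 13.49, 13.03 and 13.20 in WT libraries. After quantile normalization neither Ccl7 (limma adjusted p = 0.0825) nor Ccl8 (limma adjusted p = 0.785) passed.

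Ccl6 and Ccl9 are rodent CC chemokines. Ccl6 had 7.83, 7.85 and 7.34 in UXT KO libraries, against 10.52, 9.78 and 9.52 in WT libraries. The groups lay more than 1 log2 unit apart, and WT replicate 1 stood above the other WT libraries. Ccl6 fell 7.51-fold and Ccl9 6.27-fold by the authors' deposited table. Ccl17, a ligand of CCR4 on T cells, had 8.53, 8.76 and 8.60 in UXT KO libraries, against 10.42, 9.78 and 10.35 in WT libraries, and it fell 6.01-fold by the authors' deposited table (limma adjusted p = 4.75e-05).

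Ccl28, a chemokine of mucosal epithelia, was the CC ligand that was higher. Its values were 3.53, 3.61 and 3.39 in UXT KO libraries, against 3.37, 3.33 and 3.34 in WT libraries, and UXT KO replicate 3 came within a small distance of the highest WT library. The authors' deposited table lists a 2.55-fold rise, while limma gave a difference of 0.16 ± 0.06 (SE, adjusted p = 0.0187). Its call did not hold without UXT KO replicate 1 (limma adjusted p = 0.062) or without UXT KO replicate 2 (limma adjusted p = 0.0907).

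All 9 CXC and CX3C ligands were lower, with a median fold of 2.56 by the authors' deposited table, and 7 were called lower after quantile normalization, where Cxcl14 turned to a difference near 0 of the other sign, and 6 after median centring, where Cxcl11 did so. Pf4, the platelet factor that is also made by macrophages, had 7.29, 7.39 and 7.14 in UXT KO libraries, against 9.06, 8.98 and 8.91 in WT libraries. The 2 sets of values were tight and did not overlap. Pf4 fell 9.98-fold by the authors' deposited table, with a limma difference of -1.71 ± 0.10 (SE, adjusted p = 4.13e-06).

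Cxcl1, Cxcl2 and Cxcl3 attract neutrophils through CXCR2 and share the promoter match shown above. Cxcl2 had 6.59, 6.31 and 6.43 in UXT KO libraries, against 7.32, 7.61 and 7.19 in WT libraries. Cxcl1 had 10.74, 10.81 and 10.60 in UXT KO libraries, against 11.70, 11.33 and 11.73 in WT libraries. Every UXT KO library was below every WT library in both genes and in Cxcl3. Their falls by the authors' deposited table were 4.85-fold for Cxcl2, 4.59-fold for Cxcl3 and 2.56-fold for Cxcl1, and all 3 passed limma (adjusted p = 1.96e-04, 2.25e-04 and 1.86e-04, in that order).

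Cxcl10 and Cxcl11 are interferon-induced ligands of CXCR3. Cxcl10 had 8.22, 8.51 and 9.26 in UXT KO libraries, against 9.60, 9.77 and 9.71 in WT libraries. The UXT KO libraries differed widely, and replicate 3 stood nearest to WT. Cxcl10 fell 2.23-fold by the authors' deposited table (limma adjusted p = 0.00194). Cxcl11 fell 3.27-fold by the authors' deposited table, and its limma call (adjusted p = 0.017) did not hold without WT replicate 2 (adjusted p = 0.061) or without WT replicate 3 (adjusted p = 0.0604). Both genes lie within Art3 on the opposite strand in GENCODE M21, so their values are uncertain where strand was not used in counting.

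Cxcl12, the ligand of CXCR4 that retains stem and progenitor cells in their niche, had 12.82, 12.73 and 12.54 in UXT KO libraries, against 13.52, 13.30 and 13.37 in WT libraries. Cxcl14, a chemokine of epithelia and stroma, had 17.31, 17.35 and 16.93 in UXT KO libraries, against 17.61, 17.60 and 17.93 in WT libraries. Cx3cl1, the membrane-bound fractalkine, had 11.69, 12.22 and 11.67 in UXT KO libraries, against 12.33, 12.53 and 12.35 in WT libraries. The groups were separate in all 3 genes, but UXT KO replicate 2 came close to WT in Cx3cl1. Falls by the authors' deposited table were 2.08-fold, 1.68-fold and 1.70-fold for Cxcl12, Cxcl14 and Cx3cl1. After median centring Cxcl14 (adjusted p = 0.25) and Cx3cl1 (adjusted p = 0.141) did not pass limma.

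**Figure D3:**
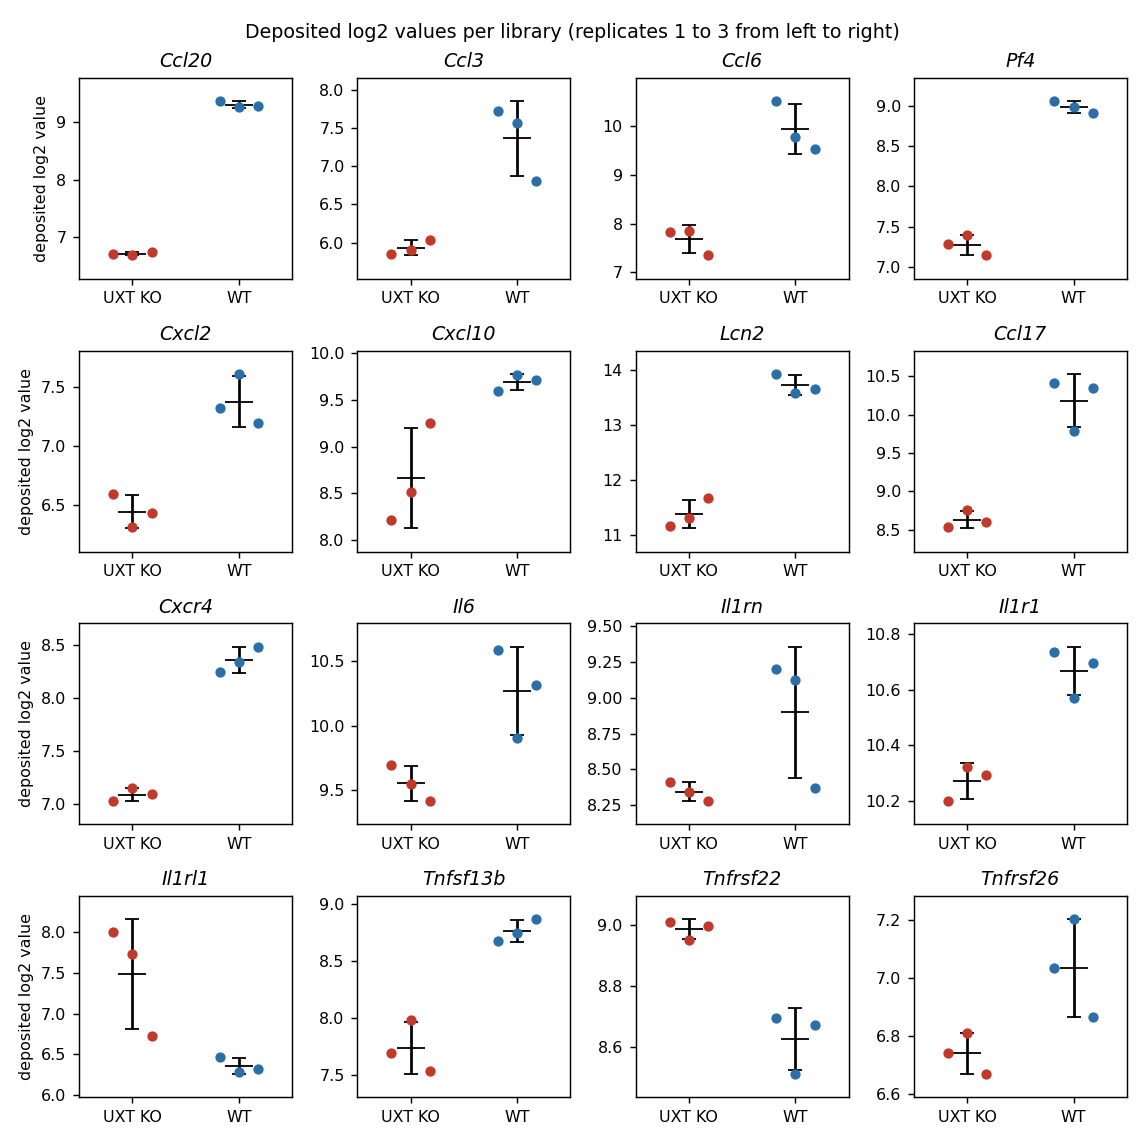
Deposited log2 values of 16 genes in the 3 UXT KO libraries (left) and the 3 WT libraries (right), with the mean and SD (n = 3) as a line and bars, on an axis of its own for each gene. Il1rn is the gene in which the groups overlap, and Cxcl10 and Il1rl1 have the widest spread among UXT KO libraries.

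The 4 chemokine receptors were all lower, with a median fold of 7.03 by the authors' deposited table, with 3 called lower under each other scaling and none turned round. Cxcr4, the receptor for Cxcl12, had 7.03, 7.15 and 7.09 in UXT KO libraries, against 8.24, 8.35 and 8.49 in WT libraries. The gap between the groups exceeded the range within either group several times over. Cxcr4 fell 6.41-fold by the authors' deposited table (limma adjusted p = 1.12e-05).

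Cx3cr1, the fractalkine receptor of monocytes and macrophages, fell 7.65-fold and Ccr1 2.58-fold by the authors' deposited table. The values of Cx3cr1 were 4.77, 4.81 and 4.78 in UXT KO libraries, against 5.20, 5.46 and 5.08 in WT libraries. Its deposited values differed by less than the listed fold (limma difference -0.46 ± 0.09 SE). Several protein-coding genes, Gorasp1, Csrnp1 and Xirp1 on the same strand among them, lie within its GENCODE M21 bounds, so its value is uncertain. Cx3cr1 did not pass after median centring (limma adjusted p = 0.133), nor did Ccr1 after quantile normalization (limma adjusted p = 0.201).

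For several known pairs of a ligand and its receptor both partners were in the table and lower, although Il6ra turned round after quantile normalization and Il1b after median centring. The receptor was lower by the larger fold by the authors' deposited table for Cxcl12 and Cxcr4 (2.08-fold and 6.41-fold), Cx3cl1 and Cx3cr1 (1.70-fold and 7.65-fold), and Il34 and Csf1r (2.40-fold and 3.03-fold). The ligand was lower by the larger fold by the authors' deposited table in others, such as Tnf and Tnfrsf1b (3.80-fold and 1.57-fold) and Il1b and Il1r1 (4.04-fold and 1.55-fold). In the deposited values the order turned round for Cx3cl1 and Cx3cr1 (limma differences of -0.54 and -0.46) and for Il1b and Il1r1 (-0.24 and -0.39). It was kept for Cxcl12 and Cxcr4, Il34 and Csf1r, and Tnf and Tnfrsf1b. These differences between partners were not tested.

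Of the interleukin family, all 5 genes were lower, by 1.73-fold to 4.04-fold by the authors' deposited table, but 2 of the 5 were called lower under each other scaling, and Il1b turned to a small positive difference after median centring. Il6, a cytokine of the acute phase response, had 9.69, 9.55 and 9.42 in UXT KO libraries, against 10.58, 9.90 and 10.31 in WT libraries. Lif, which shares the receptor subunit gp130 with interleukin 6, had 11.73, 11.77 and 11.59 in UXT KO libraries, against 12.21, 12.13 and 12.30 in WT libraries. Neither gene overlapped between the groups, and WT replicate 2 was the WT library nearest to UXT KO in both. Il6 fell 2.25-fold and Lif 1.73-fold by the authors' deposited table (limma adjusted p = 0.00231 and 4.29e-04). Lif did not pass limma after median centring (adjusted p = 0.0594).

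Il1b, which encodes interleukin 1 beta, had 3.86, 3.87 and 3.89 in UXT KO libraries, against 4.15, 4.23 and 3.98 in WT libraries. It fell 4.04-fold by the authors' deposited table, with a limma difference in the deposited values of -0.24 ± 0.06 (SE). Il1rn, the antagonist of the interleukin 1 receptor, had 8.41, 8.34 and 8.28 in UXT KO libraries, against 9.20, 9.12 and 8.37 in WT libraries. WT replicate 3 lay among the UXT KO values, and Il1rn was the single gene of the 55 whose groups overlapped. Its limma call (adjusted p = 0.0203) did not hold without UXT KO replicate 3 (adjusted p = 0.0594), WT replicate 1 (adjusted p = 0.0833) or WT replicate 2 (adjusted p = 0.082). Il34, a ligand of the macrophage receptor CSF1R, fell 2.40-fold by the authors' deposited table (limma adjusted p = 5.67e-04, and 0.166 after quantile normalization).

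Among 11 interleukin receptors 10 were lower and 1 higher, with a median fold of 1.88 by the authors' deposited table, but 7 were called lower after quantile normalization, where Il27ra and Il6ra turned to a positive difference, and 5 after median centring, where Il7r did. Il21r, the interleukin 21 receptor of lymphocytes, fell 6.22-fold, the interleukin 10 receptor gene Il10ra 5.41-fold and Il2rg, the common gamma chain, 4.42-fold by the authors' deposited table. Il10ra had 5.97, 5.99 and 5.75 in UXT KO libraries, against 6.92, 6.59 and 6.78 in WT libraries. Il2rg had 4.87, 5.02 and 4.93 in UXT KO libraries, against 5.38, 5.56 and 5.37 in WT libraries. The groups were separate in these genes. The protein-coding gene Gm20489 overlaps Il2rg on the same strand in GENCODE M21, so the value of Il2rg is uncertain. The other 7 lower receptors fell by 1.55-fold to 2.76-fold by the authors' deposited table. Il4ra, a subunit of the receptors for interleukins 4 and 13, had 13.47, 13.61 and 13.34 in UXT KO libraries, against 14.14, 13.93 and 13.99 in WT libraries (limma adjusted p = 7.04e-04, and 0.0536 after median centring).

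Il1rl1, the ST2 receptor of interleukin 33, was the receptor that was higher. It had 7.99, 7.73 and 6.73 in UXT KO libraries, against 6.47, 6.28 and 6.32 in WT libraries. UXT KO replicate 3 stood nearer to the WT values than to the other UXT KO libraries, yet above every WT library. Il1rl1 rose 5.77-fold by the authors' deposited table, the largest rise among the 55, and its limma difference was 1.12 ± 0.27 (SE, adjusted p = 0.00347). Its neighbour on chromosome 1, Il1r1, the signalling receptor for interleukin 1, had 10.20, 10.32 and 10.29 in UXT KO libraries, against 10.74, 10.57 and 10.70 in WT libraries. Il1r1 fell 1.55-fold and Il1rap, the accessory protein that both receptors use, 1.88-fold by the authors' deposited table. Il1r1 did not pass limma after median centring (adjusted p = 0.309).

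The 4 receptors for colony-stimulating factors were lower, by 2.07-fold to 3.03-fold by the authors' deposited table, but 1 of the 4 was called lower after quantile normalization, where Csf2rb2 turned to a small positive difference, and 2 after median centring. Csf1r, the receptor that macrophages need for survival, had 8.68, 8.89 and 9.08 in UXT KO libraries, against 9.81, 10.04 and 9.71 in WT libraries. The groups did not overlap (limma adjusted p = 1.58e-04). Csf2rb, the beta subunit shared by receptors for GM-CSF, interleukin 3 and interleukin 5, and its mouse paralogue Csf2rb2 are near-identical neighbours, so their separate values (2.33-fold and 2.09-fold lower by the authors' deposited table) are uncertain. Csf2ra, the alpha subunit of the GM-CSF receptor, fell 2.07-fold by the authors' deposited table (limma adjusted p = 3.59e-04, and 0.053 after quantile normalization). Csf2rb did not pass limma after quantile normalization (adjusted p = 0.422) or median centring (adjusted p = 0.0796).

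All 5 TNF superfamily ligands were lower, with a median fold of 3.71 by the authors' deposited table, but 1 of the 5 was called lower after quantile normalization and 3 after median centring, where Tnfsf18 turned round with a positive difference (limma adjusted p = 0.0401). After quantile normalization the limma calls of Tnf (adjusted p = 0.0779), Tnfsf10 (adjusted p = 0.269) and Tnfsf13 (adjusted p = 0.0931) were lost, and that of Tnfsf10 was lost after median centring too (adjusted p = 0.887). Tnfsf13b, the B cell survival factor BAFF, had 7.69, 7.98 and 7.53 in UXT KO libraries, against 8.68, 8.74 and 8.86 in WT libraries. Tnf had 5.13, 5.02 and 5.22 in UXT KO libraries, against 5.77, 5.63 and 5.53 in WT libraries. Both genes were separate between groups, by a distance that was larger in Tnfsf13b. Falls by the authors' deposited table were 4.98-fold for Tnfsf10, which encodes the death ligand TRAIL, 3.80-fold for Tnf, 3.71-fold for Tnfsf13b and 3.67-fold for Tnfsf13, which encodes APRIL. Tnfsf13 shares its locus with a readthrough gene on the same strand in GENCODE M21, so its value is uncertain.

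Of 6 TNF receptor superfamily genes 5 were lower and 1 higher, with a median fold of 1.91 by the authors' deposited table, but 1 of the 6 was called lower under each other scaling, where Tnfrsf11a and Tnfrsf26 turned to a positive difference. Tnfrsf9, the T cell costimulator 4-1BB, fell 3.59-fold by the authors' deposited table (limma adjusted p = 0.00108), a call lost after quantile normalization (adjusted p = 0.192) and median centring (adjusted p = 0.0731). Tnfrsf11b encodes osteoprotegerin, the soluble decoy for RANKL, and had 11.32, 11.51 and 10.89 in UXT KO libraries, against 12.13, 11.91 and 11.90 in WT libraries. Tnfrsf11a, which encodes RANK, fell 2.34-fold and Tnfrsf11b 2.11-fold by the authors' deposited table. Tnfrsf1b, which encodes the second TNF receptor, had 11.67, 11.42 and 11.35 in UXT KO libraries, against 11.82, 11.90 and 12.01 in WT libraries, a fall of 1.57-fold by the authors' deposited table. Its limma call was lost after quantile normalization (adjusted p = 0.0795) and median centring (adjusted p = 0.306).

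Tnfrsf22, a decoy receptor for TRAIL in mice, was higher, with 9.01, 8.95 and 9.0 in UXT KO libraries, against 8.70, 8.51 and 8.67 in WT libraries. Its neighbour on chromosome 7, Tnfrsf26, moved the other way, with 6.74, 6.81 and 6.67 in UXT KO libraries, against 7.04, 7.20 and 6.87 in WT libraries. Tnfrsf22 rose 1.57-fold and Tnfrsf26 fell 1.70-fold by the authors' deposited table. The limma call of Tnfrsf26 (adjusted p = 0.0219) did not hold without UXT KO replicate 1 (adjusted p = 0.0516), UXT KO replicate 3 (adjusted p = 0.0662) or WT replicate 2 (adjusted p = 0.074). An antisense transcript overlaps both genes in GENCODE M21, and genes on the opposite strand overlap Ccl6, Csf1r, Il1b, Il1rap, Il4ra, Il6ra, Il10ra, Il34, Tnfrsf9 and Tnfsf13b, so all these values are uncertain where strand was not used in counting.

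Lcn2, a lipocalin that binds iron-loaded siderophores and is induced in inflammation, had 11.16, 11.31 and 11.66 in UXT KO libraries, against 13.93, 13.58 and 13.66 in WT libraries. UXT KO replicate 3 was the highest of its group and still far below WT. Lcn2 fell 9.64-fold by the authors' deposited table, with a limma difference of -2.35 ± 0.14 (SE, adjusted p = 4.13e-06).

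Many of these genes lie side by side. With neighbours counted within 200 kb of each other in RefSeq GRCm38.p6, 25 of the 55 fell into 10 groups. On chromosome 11, Ccl7, Ccl12 and Ccl8 lay between 82045712 and 82116799, and Ccl9, Ccl6, Ccl3 and Ccl4 between 83572917 and 83664683. On chromosome 5, Pf4, Cxcl3, Cxcl1 and Cxcl2 lay between 90772435 and 90905938. All genes of these 3 groups were lower, with folds from 1.83 for Ccl7 to 26.7 for Ccl12 by the authors' deposited table. The 2 groups that held genes of both directions were Il1r1 with Il1rl1, between 40222480 and 40465418 on chromosome 1, and Tnfrsf26 with Tnfrsf22, between 143607685 and 143649675 on chromosome 7.

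Genes of the downstream pathways came from lists drawn up from their known roles. Of 34 NF-kB pathway genes, 7 stood in the table, 3 of them higher and 4 lower, and 1 lower after median centring. Tnip3, an inhibitor of NF-kB signalling, rose 4.79-fold and Bcl3, an atypical inhibitor protein, fell 2.23-fold by the authors' deposited table. Tnip3 had 8.26, 7.87 and 7.46 in UXT KO libraries, against 6.94, 6.78 and 6.78 in WT libraries. Of 24 JAK-STAT genes 7 were in the table and all 7 were lower, although 4 were lower and 1 higher after median centring. Ptpn6, a phosphatase of leukocytes, fell 6.53-fold by the authors' deposited table. Ptpn6 had 5.91, 6.01 and 6.15 in UXT KO libraries, against 6.88, 7.23 and 6.92 in WT libraries.

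Of 25 genes of the Toll and interleukin 1 receptor pathway 13 stood in the table, 1 of them higher and 12 lower, and 5 lower after quantile normalization. Cd14, a co-receptor for bacterial lipopolysaccharide, fell 6.35-fold and the inflammasome sensor gene Nlrp3 5.82-fold by the authors' deposited table. Of 62 further chemokine and cytokine genes whose symbols fall outside the name rule 16 stood in the table, 1 of them higher and 15 lower, and 7 lower after quantile normalization. Ppbp, a platelet chemokine, fell 16.3-fold and Rarres2, which encodes chemerin, 7.15-fold by the authors' deposited table. Of 30 NF-kB targets and acute response genes 12 stood in the table, 1 of them higher and 11 lower, and 9 lower after median centring. Nos2, the inducible nitric oxide synthase gene, fell 10.1-fold and the pentraxin gene Ptx3 5.23-fold by the authors' deposited table.

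Markers of some other cell types were lower along with these genes, and the Leydig cell markers in the table, 3 of 10, were higher. Of 30 macrophage markers 27 were in the table and all 27 were lower, by a median of 5.69-fold by the authors' deposited table. Csf1r and Cx3cr1 are on this list as well as among the 55. After quantile normalization 25 of the 27 were called lower, and 24 after median centring. The summed level of the 27, as the log2 of the sum, was 13.76 to 14.00 in UXT KO libraries and 15.19 to 15.53 in WT libraries. As for every gene of the table, none of the 27 had a deposited value of 0 in any library. The transformation of these values is not given, so this does not show that each marker was detected. Ptprc, the pan-leukocyte marker CD45, had 6.90, 6.97 and 7.13 in UXT KO libraries, against 7.81, 8.15 and 7.78 in WT libraries. Of 25 endothelial markers 23 were in the table, all lower, by a median of 9.59-fold by the authors' deposited table. Of these 22 were called lower after quantile normalization and 21 after median centring. Their summed levels were 13.34 to 13.53 in UXT KO libraries and 14.18 to 14.30 in WT libraries. This sum mostly follows Eng and Cdh5, the highest in level, which fell 1.85-fold and 1.73-fold by the authors' deposited table. None of 20 lymphocyte markers was in the table.

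All 8 fibroblast markers in the table of 17, and all 10 peritubular myoid markers of 11, were lower, and 6 of each were called lower after quantile normalization. Their summed levels were 19.42 to 20.14 and 18.52 to 18.72 in UXT KO libraries, against 20.47 to 20.62 and 19.01 to 19.32 in WT libraries. The 3 Leydig markers in the table of 10 were higher, with summed levels of 15.71 to 16.04 in UXT KO libraries and 15.15 to 15.35 in WT libraries. Of 15 germ cell markers 3 stood in the table, 1 of them higher and 2 lower (1 lower under each other scaling), with summed levels of 12.14 to 12.39 in UXT KO libraries and 11.61 to 12.08 in WT libraries. This sum is nearly that of Uchl1 alone, the marker that was higher. Kit and Sycp3, far below it in level, fell 4.19-fold and 2.73-fold by the authors' deposited table. The part of any of these cell types in the values of the 55 genes was not tested.

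**Figure D4:**
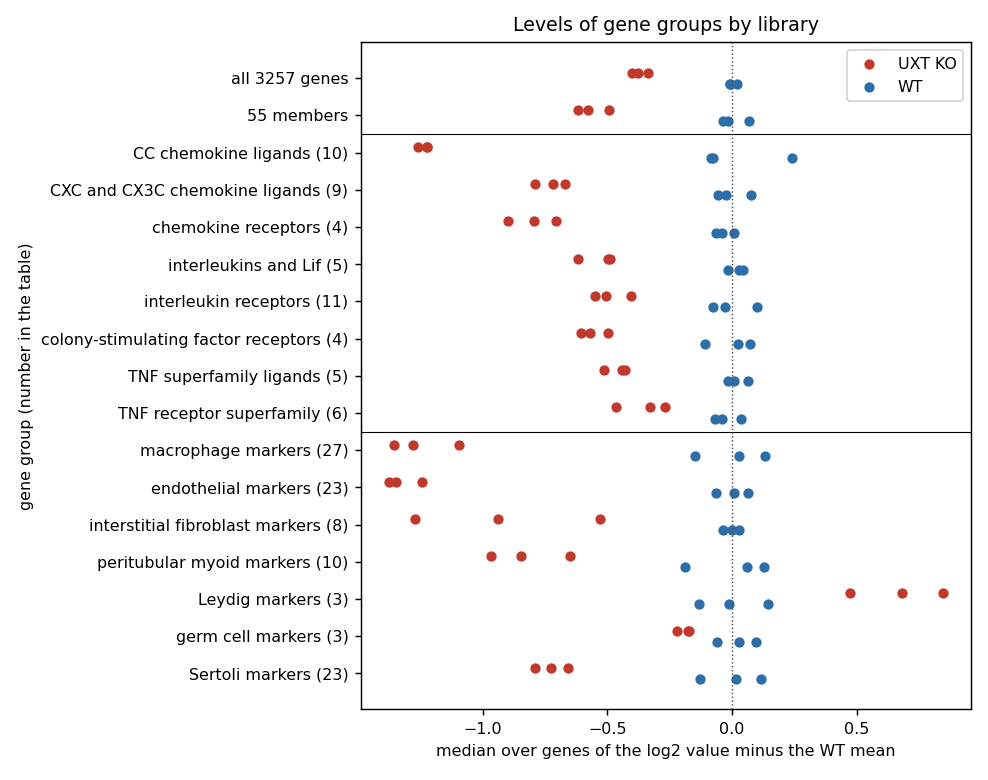
Level of each gene group in each library, as the median over its genes of the deposited log2 value minus the WT mean, for UXT KO (red) and WT (blue) libraries. The 55 genes lie at -0.58, -0.49 and -0.62 in UXT KO libraries, CC chemokine ligands at -1.22 to -1.26, and macrophage markers at -1.09 to -1.36.

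The deposited values per library differed by less than the authors' fold for each of the 55 genes, with a ratio of the log2 difference to the log2 fold change by the authors' deposited table between 0.12 and 0.89 and a median of 0.47. Over all 3257 genes its median was 0.24 in the 25% of genes with the lowest average expression and 0.65 in the 25% with the highest. The ratio was 0.12 for Il1b, Ccl28 and Tnfsf18 and 0.89 for Cxcl10. The genes nearest to the authors' threshold were Il1r1, Tnfrsf22 and Tnfrsf1b, at 1.55-fold, 1.57-fold and 1.57-fold by the authors' deposited table.

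**Figure D5:**
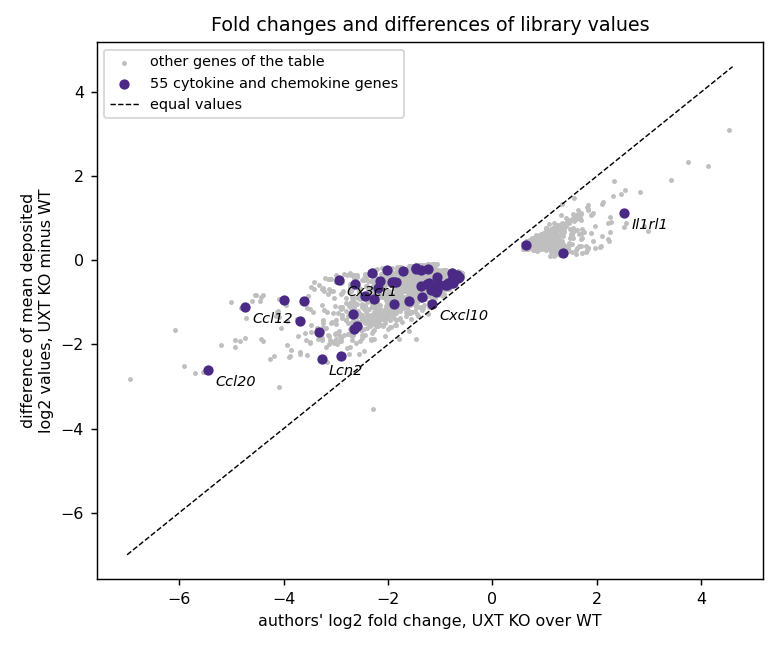
Log2 fold change by the authors' deposited table (x axis) against the difference of mean deposited log2 values, UXT KO minus WT (y axis), for the 55 genes (purple) and the other genes of the table (grey). The 55 genes lie nearer to 0 than the dashed line of equal values, with a median ratio of 0.47.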

How the data were processed

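Strand-specific mRNA libraries of 3 UXT KO and 3 WT samples were compared, grouped by their labels. FastQC, STAR, DESeq2 and the mm10 build are named in the submitters' processing notes. The counter, annotation and transformation are among the steps not given in the sources used here. For each gene the deposited table holds log2 values per library, their average log2 expression, a fold change and its log2, and a p-value before and after adjustment, per the file headers. The deposited fold change is negative for lower genes and was handled as a signed score. The authors kept rows at a fold of 1.5 or more and an adjusted p-value under 0.05, as tested on the table. Of 3261 rows, 4 with a repeated symbol were left out.

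limma 3.58.1 (R 4.3.3) with a mean-variance trend was fitted to the deposited log2 values of 3257 genes, with Benjamini-Hochberg adjustment over all of them. It was tested on simulated data. Calls required an adjusted p below 0.05 together with at least 1.5-fold in the authors' deposited table. Fold sizes are the authors', because the deposited values per library differ by less than those folds. Alternatives were quantile normalization, median centring, no trend, stricter thresholds, a filter on low values, a replicate block and each library left out. Depth is unknown, so no counting interval is given.

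The genes and lists were chosen with earlier results of these data known. Genes were named by a rule: in each role the 3 largest folds, folds of 4 or more, genes that were higher, the highest average level and genes not called, with both partners of each pair and the 2 largest folds of each pathway list. Cxcl1, Cxcl10, Cxcl11, Ccl8, Csf2ra, Il1rap, Il27ra, Il7r, Tnfrsf26, Tnfsf13, Tnfsf18 and Ptprc were chosen after their values were seen. The values of 2 genes, 1 of them among the 55, are not reported here, but these genes are kept in the counts.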

Additional observations from a re-analysis of the deposited data

How the results depend on the processing

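The scaling between libraries moved most of the counts. Quantile normalization and median centring were computed over the selected genes alone, most of them lower, so they take out part of that change. After quantile normalization 1143 genes of the table were called lower, as were 30 of the 55 genes. Among these were 1 TNF receptor gene, 1 TNF ligand, 1 receptor for colony-stimulating factors and 2 of the interleukin family. Under this scaling 35 of the 55 genes did not overlap between groups. The background of 97.5% is for the deposited values, so this count cannot be set against it. After median centring 1024 genes of the table were called lower, as were 30 of the 55, 1 TNF receptor gene, 3 TNF ligands (with 1 higher), 2 receptors for colony-stimulating factors, 5 interleukin receptors and 2 of the interleukin family. The difference (log2, UXT KO minus WT) turned positive after quantile normalization in Csf2rb2 (0.0501), Cxcl14 (0.0038), Il27ra (0.11), Il6ra (0.056), Tnfrsf11a (0.0176) and Tnfrsf26 (0.16). It turned positive after median centring in Ccl8 (0.0578), Cxcl11 (0.0308), Il1b (0.0525), Il7r (0.0795), Tnfrsf11a (0.094), Tnfrsf26 (0.0005) and Tnfsf18 (0.12). The cause was not tested.

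Without the 25% of genes lowest in average level, 34 of the 55 genes were tested and all 34 kept their call. Of these 32 were called lower, with 2 TNF receptor genes, 1 TNF ligand, 2 chemokine receptors and 6 interleukin receptors among them. At a fold of at least 2, 302 genes of the table were higher and 1438 lower, with 3 TNF receptor genes lower and 0 higher and 4 interleukin receptors lower. The number of CC chemokine ligands called higher by limma was 1 in the fit reported (Ccl28). It was 0 without the trend, without that 25%, which holds Ccl28, and at an adjusted p under 0.01. The unadjusted limma p for Ccl28 was 0.0179. With each library left out in turn, 1014 to 1034 genes of the table were higher and 2085 to 2158 lower, 2 to 3 of the 55 were higher and 49 to 52 lower, and 0 to 1 CC ligand was higher. With the replicate number as a block, 52 of the 55 were lower and 3 higher, with 2207 genes of the table lower and 1045 higher. Deviations of same-numbered libraries correlated at 0.18, -0.07 and -0.0039, and those of differently numbered libraries at -0.203 to 0.196. With 3 libraries per group these values cannot decide whether the numbers pair the libraries.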
